A study of Mus musculus with 12 samples.

Results

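The stroma and the epithelium of mammary tumours without Rarb were compared within the same tumours. The differences are those of the 6 arrays whose titles carry the Rarb KO label, of 12 arrays in all. These arrays hold epithelium and stroma of KO tumours 1, 3 and 4, with the 2 arrays of a tumour paired by the number in their titles. All mice were of the FVB strain and carried the MMTV-Wnt1 transgene, and those of the KO group were Rarb -/-, so that both compartments lack the gene in these tumours. The other 6 arrays hold both compartments of WT tumours 1, 2 and 3, which carry the transgene and are Rarb +/+. They enter the same fit, so standard errors, p-values and calls also rest on the spread of the WT tumours. Compartments were cut from stained sections by laser capture under a microscope. Each captured RNA, labelled with Cy3, was hybridised against a commercial mouse reference RNA labelled with Cy5. No age, treatment or time point is given in the labels and they do not tie each tumour to a mouse of its own. The p-values therefore cover the spread between these samples, which may be partly technical.

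Wnt1 encodes a secreted ligand that binds Frizzled and Lrp receptors on the cell surface and stabilises beta-catenin, and the MMTV promoter is active mainly in mammary epithelium. Tumours of this model hold luminal-like and basal-like tumour cells among fibroblasts, vessels and leukocytes, and captured stroma is therefore a mixture of several cell types. In a tissue sample of this kind, fewer cells of a type and less RNA per cell cannot be told apart. Rarb encodes a receptor for retinoic acid that acts in the nucleus as a transcription factor.

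Values are log2 ratios of the tumour sample over the reference RNA, and a difference is stroma minus epithelium in the same tumour, so a positive difference is higher in stroma. The scanner's own ratio and the epithelial columns of the deposited value table have the opposite sign. Of 55681 probes 27235 were matched to 20660 genes, and 13351 genes had a probe with Cy3 well above background on at least 3 of the 12 arrays. On the 6 KO arrays between 36.0% and 44.9% of probes had Cy3 well above background, and precision is limited by the small number of arrays. Epithelial arrays of KO tumours correlated with each other across genes at 0.852 to 0.869 and stromal arrays at 0.809 to 0.818, against 0.493 to 0.651 between a stromal and an epithelial array. Genes are not independent replicates, and the arrays share the reference RNA. All stromal arrays lie on 1 slide and all epithelial arrays on another, scanned at another time, so slide and compartment cannot be told apart. After normalisation within and between arrays, the reference channel differed at least 2-fold between the slides for 0.569% of genes, against 21.5% for the sample channel. The reference channel holds the same RNA on both slides. It cannot show effects on capture or labelling of the samples, so this comparison does not separate slide from compartment.

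At an adjusted p under 0.05, 2674 of 13351 genes differed between KO stroma and KO epithelium, which is 20% of genes tested. Of these 1357 were higher in stroma (10.2% of genes tested) and 1317 lower (9.86%). Counts of called members in the gene lists below stand beside these shares. With a difference of at least 2-fold, 1100 genes were higher (8.24%) and 774 lower (5.8%). At 4-fold or more there were 521 higher and 245 lower. The arrays of the compartments did not overlap for 36.9% of genes tested. The sign was the same in all 3 tumours for 2671 of the called genes, and for 54.4% of all genes tested. The median difference over all genes tested was -0.03. Counts fell when a KO tumour was left out, to 1207 without tumour 1, 1149 without tumour 3 and 1074 without tumour 4. Without WT tumour 1, 2 or 3 the count was 1973, 2320 and 2718. A fit of the 6 KO arrays alone called 1955 genes and shared 1801 calls with the main fit, which is 67.4% of the 2674. The cause of the fall was not tested. Falls in the counts of the gene lists below stand beside this fall over all genes.

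Krt8, Krt18 and Col1a1 followed the labels of their compartments, as did the markers Epcam, Col1a2, Pdgfra, Dcn, Cdh5 and Csf1r. The fat cell marker Fabp4 was called higher in stroma and the muscle marker Mb lower (-3.37). Several cell type markers did not pass the test, among them Krt5, Krt14, Kdr, Pecam1, Ptprc, Cd3e, Des and Acta2. Keratins 8 and 18 are the paired filament proteins of simple epithelium. Krt8 had ratios of 4.45, 3.84 and 2.69 in the epithelium of KO tumours 1, 3 and 4 and of 1.44, 0.77 and 0.15 in their stroma. Every epithelial value lay above every stromal one, with a difference of -2.87 (SE 0.234, adjusted p = 0.00181). Krt18 differed by -2.29 (adjusted p = 0.00414). Col1a1, a chain of type I collagen and a product of fibroblasts, had -2.003, -1.23 and -5.01 in epithelium and 3.50, 2.38 and 3.57 in stroma. The groups did not overlap, and the difference was 5.90 (SE 1.33, adjusted p = 0.0258). The lowest value was that of the epithelium of tumour 4. In the compartment where a called gene named here was lower, its probe was well above background on 1 of 3 arrays for Abcc9, Ccl7, Cdh5, Ebf1, Fli1, Fzd7, Hoxa3, Jchain, Kcnj8, Nid2, Procr, S100a9, Snai1, Sox18 and Sox9. It was so on 2 of 3 arrays for Adh1, Adm, Ccl12, Col5a2, Col5a3, Crabp1, Crym, Csn1s1, Fabp4, Fbn1, Fgg, H2-Eb1, Hoxc4, Itga5, Itga8, Lama2, Loxl1, Lrrc17, Lyve1, Mb, Meltf, Mmp3, Oas2, Pdgfrb, Plaur, Pmp22, Prrx1, Srpx2, Timd2, Twist2 and Zeb1. Probes of the epithelial cadherin Cdh1, the pericyte gene Rgs5 and the muscle gene Ckm were not well above background on any KO array and were not tested.

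**Figure D1:**
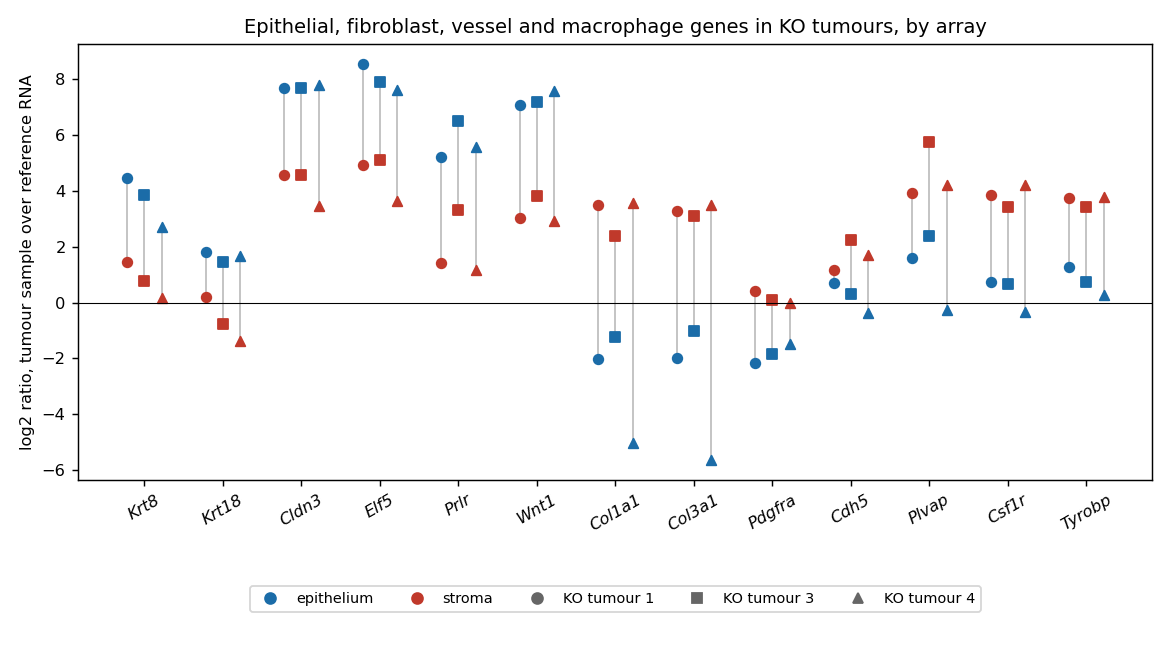
Log2 ratio of tumour sample over reference RNA (vertical axis) for 13 genes on the 6 KO arrays. Each grey line joins the epithelium (blue) and the stroma (red) of 1 tumour, with the marker shape giving the tumour; the epithelial genes on the left drop from blue to red in each tumour and the fibroblast, vessel and macrophage genes on the right climb.

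Among 22 luminal genes measured, of 24 listed, 17 were lower in stroma and none higher, with a median difference of -2.22. The number was 14, 13 and 15 when tumour 1, 3 or 4 was left out. Luminal cells line the ducts and give rise to the milk-producing cells. Elf5, the transcription factor of alveolar cells, had ratios of 8.54, 7.89 and 7.62 in epithelium and 4.92, 5.11 and 3.62 in stroma. The differences were -3.62, -2.78 and -3.995, lower in the stroma of each tumour and 11.04-fold on average (SE 0.328 on the log2 scale, adjusted p = 0.00234). The stem and progenitor cell receptor Kit had 7.53, 7.75 and 7.02 in epithelium and 3.90, 5.05 and 3.41 in stroma (difference -3.31, adjusted p = 0.00366). The prolactin receptor Prlr had 5.22, 6.49 and 5.56 against 1.43, 3.32 and 1.15 (difference -3.79, adjusted p = 0.00181), but a second, dimmer Prlr probe gave -0.05. Krt19, another luminal keratin, was lower as well (-2.15). The adhesion gene Epcam was at least 1.76-fold lower in stroma, where no array had its probe well above background (adjusted p = 0.0154). Its call ended without tumour 1 (adjusted p = 0.070) or tumour 3 (adjusted p = 0.071), and with median centring or Agilent's processed signals.

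Epithelial transcripts were lower in stroma but not absent from it. Of the 22 luminal genes 14 were well above background on all 3 stromal arrays and 4 on none. The list's median ratio was 2.58, 2.82 and 2.15 on the epithelial arrays and 0.49, 0.72 and 0.11 on the stromal ones. The 20 fibroblast genes measured had median ratios of -0.97, -0.89 and -1.45 in epithelium, where 17 of them were above background on all 3 arrays, and of 3.20, 2.24 and 2.96 in stroma. The part of captured cells of the other compartment in these differences was not tested.

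Transcription factors of epithelial identity were lower in stroma as a group, 14 of 22 measured with none higher, at a median of -2.27. The number was 15, 13 and 13 without tumour 1, 3 or 4. Grhl1, a grainyhead factor that regulates junction genes, had ratios of 3.91, 4.61 and 4.03 in epithelium and 0.83, 1.10 and 0.34 in stroma (difference -3.43, SE 0.265, adjusted p = 0.00181). Tfap2c, an AP-2 factor of mammary luminal cells, had 6.40, 6.56 and 6.11 against 2.84, 3.87 and 3.62 (difference -2.91, adjusted p = 0.00181). In both genes the compartments stood clear of each other by more than 2 log2 units. Foxi1, a forkhead factor of ion-transporting cells, had 7.48, 7.17 and 6.44 against 3.50, 4.16 and 4.13 (difference -3.101, adjusted p = 0.0025). Sox10, found in nerve sheath and in mammary epithelial cells, was also lower in stroma (-2.76).

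Factors that repress epithelial genes were higher in stroma. The zinc finger factor Zeb1 had ratios of -3.27, -3.06 and -4.14 in epithelium and -0.28, -0.06 and 0.55 in stroma, with no overlap (difference 3.56, SE 0.45, adjusted p = 0.00446). Snai1 (1.55), Twist2 (2.06) and Twist1 (1.05) were higher in stroma too, where the Twist1 value is at least 1.45-fold because no epithelial array had its probe above background. Snai2 (-0.30) and Zeb2 (0.85) did not pass the test. Snai1, Twist1 and Twist2 fall outside the naming rule and were chosen after their values were seen. In the list of mesenchymal transition genes 11 of 16 measured were higher and none lower, at a median of 1.74. Without tumour 1, 3 or 4, 5, 6 and 5 were higher. Most of the higher genes count in other lists too. Fn1, S100a4, Prrx1 and Twist1 are also fibroblast genes, and Zeb1, Twist1, Twist2 and Prrx1 also stromal transcription factors. Mmp3 and Itga5 count among proteases and integrins. Vim, the intermediate filament of mesenchymal cells, had -4.49, -2.31 and -4.95 in epithelium and -0.37, 0.59 and -0.69 in stroma (difference 3.76, adjusted p = 0.00335).

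Zeb1 and Snai1 are known to bind the E-box letters CACCTG, and promoters of luminal genes that were lower in stroma are shown because they hold these letters often. Sequences are from RefSeq, build GRCm38.p6, 5′ to 3′ on the gene's strand, and cover the 250 bases before the transcript's start, with each match to CACCTG or to CAGGTG, its other strand, in capitals. The Elf5 window at chr2:103411848-103412097 (plus strand) holds 3 matches, that of Spint2 at chr7:29281978-29282227 (minus strand) 3, that of Epcam at chr17:87635729-87635978 (plus strand) 2 and that of Krt8 at chr15:102004343-102004592 (minus strand) 1. Elf5 has a second promoter in the table without a match, and the window of Cldn3 holds none.
Elf5: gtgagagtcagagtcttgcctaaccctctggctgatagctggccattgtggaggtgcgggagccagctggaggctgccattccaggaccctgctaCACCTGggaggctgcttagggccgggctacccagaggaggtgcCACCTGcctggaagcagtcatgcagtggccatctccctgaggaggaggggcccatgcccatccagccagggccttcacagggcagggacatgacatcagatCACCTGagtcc
Spint2: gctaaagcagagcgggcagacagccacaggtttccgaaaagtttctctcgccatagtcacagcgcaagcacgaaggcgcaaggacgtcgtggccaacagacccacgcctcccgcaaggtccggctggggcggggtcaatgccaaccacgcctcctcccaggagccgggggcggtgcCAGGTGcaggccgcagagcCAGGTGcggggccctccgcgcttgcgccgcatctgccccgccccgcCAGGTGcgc
Epcam: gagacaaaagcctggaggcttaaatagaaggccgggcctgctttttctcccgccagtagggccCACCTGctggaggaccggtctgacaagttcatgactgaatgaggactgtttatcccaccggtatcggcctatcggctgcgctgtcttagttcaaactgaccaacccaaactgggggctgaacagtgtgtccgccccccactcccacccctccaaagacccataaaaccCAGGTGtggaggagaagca
Krt8: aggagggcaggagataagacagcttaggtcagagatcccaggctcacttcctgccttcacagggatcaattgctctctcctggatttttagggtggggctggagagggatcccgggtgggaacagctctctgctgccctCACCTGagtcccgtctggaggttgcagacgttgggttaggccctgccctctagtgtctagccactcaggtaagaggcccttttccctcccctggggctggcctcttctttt

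The letters stood in 17.2% of all 32851 promoters of the table and in 16.5% of those of genes tested. They stood in 21.7% of promoters of genes lower in KO stroma and in 15.0% of those of genes higher in it. Among the luminal genes lower in stroma, 15 had a promoter in the table, and 11 of their 21 promoters (52.4%) held a match, each from another gene. Among the epithelial transcription factors lower in stroma, 3 of 11 promoters (27.3%) held one, those of Elf5, Foxa1 and Foxi1. Of 12 promoters of fibroblast genes and 8 of collagen genes higher in stroma, 0 held one. They come from 10 of 20 fibroblast and 7 of 9 collagen genes, and the lists share Col1a1 and Col1a2. At the 16.5% share of genes tested few matches are expected in sets this small, so 0 does not set them apart. These shares describe letters in a window, and binding was not measured. The part of Zeb1 and Snai1 in the lower luminal values was not tested.

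Junction genes split in the same direction, 19 of 29 measured lower in stroma and none higher, at a median of -1.52. Leaving out tumour 1, 3 or 4 gave 14, 12 and 13. Tight junction strands are built by claudins. Cldn3 had ratios of 7.68, 7.66 and 7.77 in epithelium and 4.56, 4.58 and 3.45 in stroma (difference -3.51, SE 0.315, adjusted p = 0.00208). The epithelial values were nearly equal, and each stromal value was at least 3 log2 units below. Cldn8 had 4.005, 5.27 and 4.64 against 0.82, 1.92 and 0.56 (difference -3.54, adjusted p = 0.00181). The gap junction gene Gjb2 differed by -3.78 (adjusted p = 0.00244) and the junction scaffold gene Tjp3 by -2.52 (adjusted p = 0.00273). Tjp1, a scaffold that endothelial cells also use, differed less (-1.20). The claudin gene Cldn4 (-0.04), the plakoglobin gene Jup (0.11) and the desmoglein gene Dsg2 (-0.27) did not pass the test.

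Milk and secretory genes were lower in stroma for 8 of 19 measured, at a median of -1.64, with 5, 5 and 7 without tumour 1, 3 or 4. Their levels differed between tumours. The casein gene Csn1s1 had ratios of 8.98, 6.15 and 1.28 in the epithelium of tumours 1, 3 and 4 and of 4.47, 1.84 and 0.31 in stroma. Tumour 1 was highest and tumour 4 lowest in both compartments, and the compartments overlapped although stroma was lower in each tumour (difference -3.26, SE 0.669, adjusted p = 0.0192). The whey protein gene Wap followed the same order in epithelium, with 5.10, 2.49 and 2.06 against 2.42, 0.26 and 0.62 (difference -2.12, adjusted p = 0.004), and its call ended in fits without a fixed tumour block. The call of Olah, a thioesterase gene of milk fat synthesis, ended without the block and its sign turned with Agilent's processed signals (0.14).

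Basal genes were lower in stroma for 3 of 19 measured and higher for 1, at a median of -0.86. Of all genes tested 9.86% were lower and 10.2% higher. Krt5, the keratin of basal cells, had ratios of 8.04, 8.19 and 8.39 in epithelium and 8.02, 7.96 and 8.26 in stroma. The values overlap, and the difference of -0.13 did not pass the test (SE 0.263, adjusted p = 0.767). It turned to 0.22 with Agilent's processed signals, and a dimmer probe gave -0.67. Krt14 had 3.55, 7.41 and 3.48 against 2.65, 4.34 and 3.70 (difference -1.25, adjusted p = 0.470). Krt17 was lower in stroma (-2.81, adjusted p = 0.00254), a call that ended with Agilent's processed signals, and so was the hemidesmosome collagen gene Col17a1 (-2.46). Procr, a receptor of basal stem cells and of endothelium, had -2.15, -2.16 and -2.07 in epithelium and 0.02, 0.86 and 0.30 in stroma (difference 2.52, adjusted p = 0.00273).

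Wnt genes were called in both directions. Of 37 listed ligands, receptors and regulators 25 were measured, 6 lower and 5 higher in stroma, at a median of -0.29, with 3, 3 and 4 lower and 2, 3 and 2 higher without tumour 1, 3 or 4. The transgene's own transcript Wnt1 had ratios of 7.05, 7.16 and 7.57 in epithelium and 3.01, 3.80 and 2.90 in stroma. It was 16.2-fold lower in stroma (difference -4.02, SE 0.251, adjusted p = 0.00179), while a dimmer probe gave -1.06 and was above background on 0 of 3 stromal arrays. Wnt5b, a ligand that mostly signals without beta-catenin, followed it with 6.34, 6.14 and 6.68 against 3.03, 3.64 and 3.38 (difference -3.04, adjusted p = 0.00181). Neither gene overlapped between compartments. Wnt6 (-1.26) and the receptor gene Fzd7 (-0.67) were lower in stroma, with calls that ended without each of the 3 tumours (adjusted p from 0.056 to 0.16). Fzd7 also lost its call with 5 other settings and without each WT tumour. Wnt9a, at least 3.38-fold higher in stroma, and Wnt11 (0.74) went the other way, as did the receptor gene Fzd2 (1.16).

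Secreted Wnt antagonists lay on both sides. Wif1, which binds Wnt proteins, had ratios of 5.46, 5.70 and 6.18 in epithelium and 2.86, 3.18 and 4.72 in stroma (difference -2.19, SE 0.321, adjusted p = 0.0069). Sfrp2, a decoy receptor, had 1.66, 1.01 and 0.11 against 4.21, 4.33 and 2.64 (difference 2.80, SE 0.426, adjusted p = 0.00776). Sfrp4 was at least 8.19-fold higher in stroma, with 4.02, 3.57 and 0.45 there. The agonist gene Rspo1 was lower in stroma (-2.37, adjusted p = 0.0232). Of 25 target genes measured 5 were lower in stroma and 4 higher, at a median of -0.59. Without tumour 1, 3 or 4 there were 5, 4 and 5 lower and 0, 2 and 1 higher. Rnf43, a feedback ubiquitin ligase, had 2.57, 2.80 and 2.92 against 0.20, 0.13 and 0.27 (difference -2.56, SE 0.162, adjusted p = 0.0018). The cell cycle gene Ccnd1 (-1.79) and the progenitor factor gene Sox9 (-2.11) were lower too. Axin2, a feedback gene used as a readout of beta-catenin activity, had -1.44, -0.44 and 0.11 in epithelium and -0.14, 0.21 and -0.45 in stroma. It overlapped between compartments, with a difference of 0.47 (adjusted p = 0.440). Wnt9a, Wnt11, Fzd2, Sfrp4, Rspo1 and Axin2 fall outside the naming rule and were chosen after their values were seen.

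**Figure D2:**
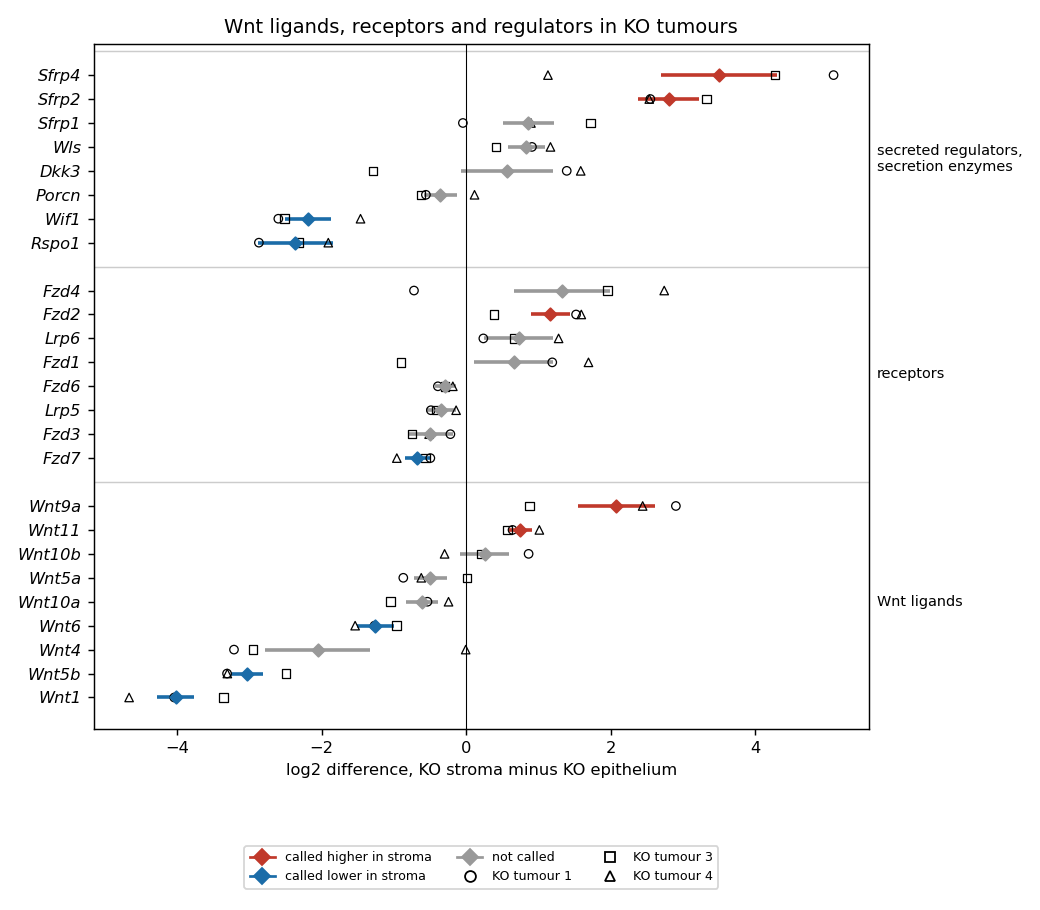
Log2 difference of stroma minus epithelium (horizontal axis) for the 25 Wnt ligands, receptors and regulators measured in KO tumours. Diamonds are the fitted difference with its standard error, coloured by the call, and open symbols are the 3 tumours; Wnt1 and Wnt5b lie on the left and Sfrp2 and Sfrp4 on the right.

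Fibroblast genes were higher in stroma for each of the 20 measured, of 22 listed, at a median of 4.26. Fewer were called when tumour 1, 3 or 4 was left out, namely 7, 9 and 5. Fap, a surface protease of activated fibroblasts, had ratios of 0.68, 0.65 and -0.01 in epithelium and 5.25, 5.41 and 5.51 in stroma. The compartments did not overlap, and the difference of 4.95 is 30.8-fold (SE 0.675, adjusted p = 0.00556). Cd248, a surface glycoprotein of fibroblasts and pericytes, had -0.82, -0.60 and -2.18 against 4.24, 3.49 and 3.43 (difference 4.92, adjusted p = 0.00549). Fstl1 (5.09), S100a4 (4.30) and the transcription factor gene Prrx1 (2.36) kept their call whichever tumour was left out, as did Fap and Cd248. The receptor gene Pdgfra differed by 2.01 and the proteoglycan gene Dcn by 3.65. Their calls and those of Col1a1 and Col1a2 ended without each KO tumour, with adjusted p between 0.051 and 0.15.

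The 12 largest rises named by the rule were led by matrix genes and held Col1a1, Col1a2 and the genes below. Fn1, the adhesive matrix glycoprotein fibronectin, had ratios of -4.64, -3.46 and -7.52 in epithelium and 1.48, 1.19 and 0.28 in stroma (difference 6.19, SE 1.13, adjusted p = 0.0136). Col3a1, a fibrillar collagen of loose connective tissue, had -1.997, -1.01 and -5.62 against 3.29, 3.095 and 3.50 (difference 6.17, SE 1.25, adjusted p = 0.0184). In both genes the epithelium of tumour 4 was lowest by more than 2 log2 units, and the call ended without tumour 4 (adjusted p = 0.072 and 0.080) or tumour 1 (0.065 and 0.067). Rarres2 encodes chemerin, a chemoattractant of leukocytes. It had 0.73, 1.25 and -3.44 against 6.33, 6.11 and 3.54, with tumour 4 lowest in both compartments (difference 5.81, SE 0.855, adjusted p = 0.007). Lsp1, an actin-binding protein of leukocytes, had -0.59, -1.31 and -1.91 against 4.92, 3.099 and 3.70 (difference 5.18, SE 0.481, adjusted p = 0.00225). Lrrc17 (5.56), Rarres2, Lsp1 and Col5a1 (5.20) kept their call without each tumour, whereas Svep1 (5.55), Mfap5 (5.48) and Srpx2 (5.34, and 2.20 with a second probe) lost it. The sodium pump regulator gene Fxyd1 (5.15) lost it without tumour 1 or 4.

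The largest falls were Crym (-4.07), a thyroid hormone binding protein, then Wnt1, the nucleoside transporter gene Slc28a3 (-4.01), Meltf (-3.81), Prlr, Gjb2, Timd2 (-3.73), the fibrinogen gene Fgg (-3.61), Col9a1 (-3.58), Cldn8, Cldn3 and Elf5. Slc28a3 had ratios of 8.67, 7.84 and 7.53 in epithelium and 4.35, 4.18 and 3.46 in stroma (adjusted p = 0.00181). Crym had 5.64, 6.13 and 5.60 against 0.33, 4.05 and 0.77, so that the stroma of tumour 3 stood more than 3 log2 units above the other stromal arrays. Meltf and Fgg lost their call without each tumour, Col9a1 without tumour 1 or 4 and Crym without tumour 4 (adjusted p = 0.05004). Second probes gave 0.02 for Col9a1 and -0.55 for Timd2.

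Collagen genes of fibrils and beaded filaments were higher in stroma for 9 of 15 measured and lower for none, at a median of 3.39, with 3, 5 and 2 without tumour 1, 3 or 4. The type VI chain genes Col6a1 (4.90), Col6a2 (3.39) and Col6a3 (4.03) and the type V chain genes Col5a1, Col5a2 (1.31) and Col5a3 (4.47) were among them. Col6a3 lost its call without each tumour, Col5a2 without tumour 1 or 4 and Col5a3 without tumour 4. Col11a1 (-0.24), Col16a1 (-0.09) and Col8a1 (0.68) did not pass the test. Glycoproteins and proteoglycans were higher for 19 of 25 measured, at a median of 3.32, with 6, 11 and 8 without tumour 1, 3 or 4. Tgfbi, an adhesion protein induced by TGF-beta, had ratios of 1.30, 0.89 and -0.26 in epithelium and 4.03, 4.67 and 4.398 in stroma (difference 3.72, SE 0.444, adjusted p = 0.0039). The microfibril genes Fbn1 (3.32) and Emilin2 (5.02) and the tenascin gene Tnxb (4.54) were higher too. The proteoglycan gene Vcan had a difference of 0.00, and Thbs1 of 0.74, neither past the threshold.

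Enzymes that process and crosslink collagen were higher in stroma for 12 of 18 measured and lower for none, at a median of 1.97, with 6, 7 and 5 without tumour 1, 3 or 4. The lysyl oxidase gene Loxl1 had ratios of -2.35, -1.99 and -2.95 in epithelium and 2.05, 1.78 and 1.07 in stroma (difference 4.06, SE 0.567, adjusted p = 0.00601), with 1.08 from a second probe. Lox was at least 3.04-fold higher in stroma (adjusted p = 0.00737). The procollagen protease gene Adamts2 differed by 5.14 and lost its call without tumour 4. Of 18 proteases and inhibitors measured 13 were higher and none lower, at a median of 2.40, with 5 called without each of the 3 tumours. Timp1, an inhibitor of matrix metalloproteinases, had -2.93, -2.89 and -4.15 against 0.84, 0.996 and 1.37 (difference 4.39, adjusted p = 0.0078). The lysosomal protease gene Ctsb (2.50), the urokinase receptor gene Plaur (2.90) and Mmp23 (2.87) kept their call without each tumour. Mmp3 (4.50) lost it in each of these fits, with adjusted p of 0.057 to 0.060. Mmp14 (0.51) and Mmp7 (-0.62) did not pass the test.

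**Figure D3:**
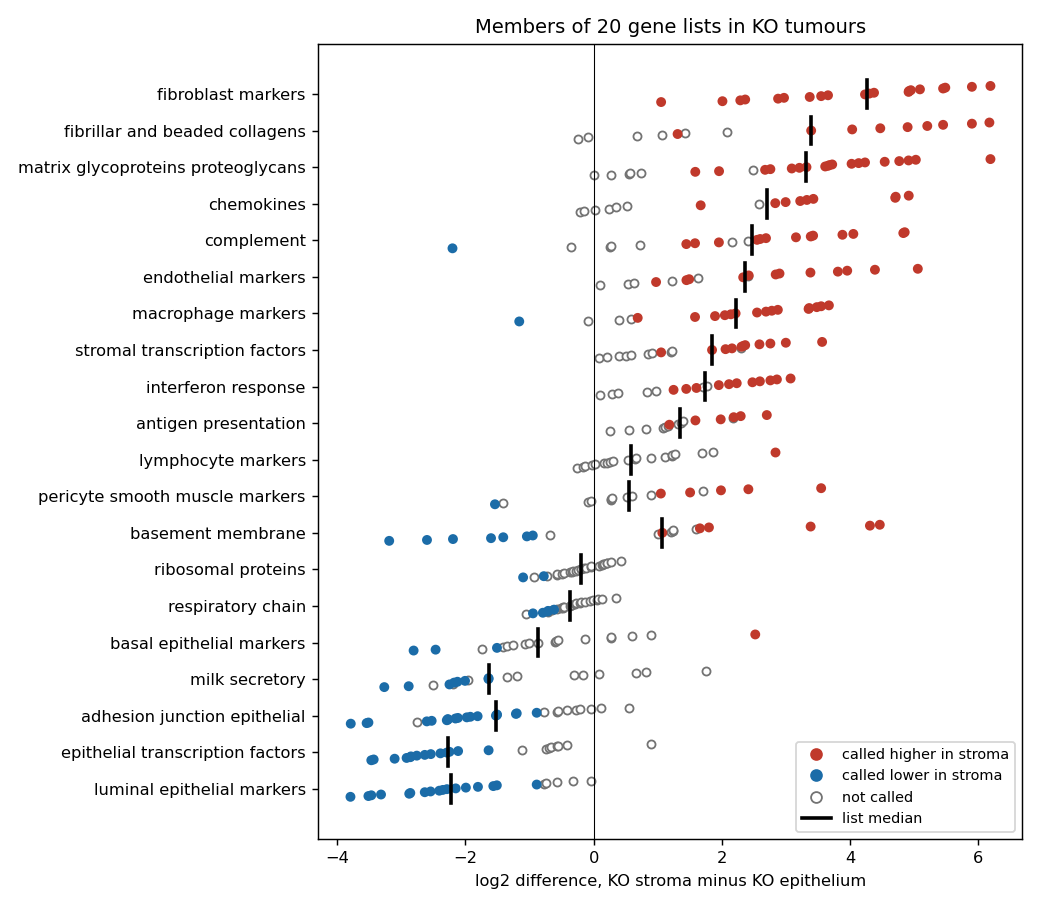
Log2 difference of stroma minus epithelium (horizontal axis) for the measured members of 20 gene lists in KO tumours. Each point is 1 gene, filled where its adjusted p was under 0.05, and the bar is the list median; fibroblast genes have a median of 4.26, luminal genes of -2.22, and basement membrane genes spread to both sides.

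Basement membrane genes were called in both directions, 6 of 19 higher in stroma and 7 lower, and all 19 listed genes were measured. Basement membrane is a sheet of laminin and type IV collagen networks, linked by nidogen and perlecan, that lies under epithelium and around vessels. Laminins are trimers of an alpha, a beta and a gamma chain. Chains of epithelial laminins were lower in stroma. Lama1 had ratios of 5.94, 5.70 and 5.64 in epithelium and 1.55, 3.25 and 2.92 in stroma (difference -3.19, SE 0.38, adjusted p = 0.0039). The alpha chain gene Lama3 differed by -0.95 (adjusted p = 0.031), and the beta chain gene Lamb3 was at least 3.62-fold lower (adjusted p = 0.0119). The type IV collagen chains Col4a5 (-1.41, adjusted p = 0.00507) and Col4a6 (-2.60, adjusted p = 0.00181), which form 1 network together, were lower, although a second Col4a6 probe gave 0.09. The proteoglycan gene Agrn was lower as well (-1.04).

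Higher in stroma were chains found in muscle, nerve and vessel basement membrane and the linker proteins. Lama2 had ratios of -0.24, 1.66 and -2.31 in epithelium and 3.66, 4.24 and 4.15 in stroma (difference 4.31, SE 1.01, adjusted p = 0.0286). Lama4, the alpha chain of vessels, had 1.91, 1.15 and 1.36 against 3.20, 3.50 and 3.11 (difference 1.80, SE 0.241, adjusted p = 0.00528). Lamc1, a gamma chain shared by most laminins, differed by 1.66 (adjusted p = 0.00531). The linker gene Nid1 had -2.47, -1.58 and -3.07 against 2.42, 2.20 and 1.64 (difference 4.46, adjusted p = 0.00966), and Hspg2, the gene of perlecan, -0.88, -0.61 and -1.14 against 2.42, 2.21 and 2.89 (difference 3.38, adjusted p = 0.0056). Nid2 differed by 1.07.

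The type IV collagen chains of all basement membranes did not separate the compartments in each tumour. Col4a1 had 3.29, 0.84 and 2.11 in epithelium and 2.25, 4.003 and 4.78 in stroma, lower in the stroma of tumour 1 and higher in that of tumours 3 and 4 (difference 1.60, SE 0.77, adjusted p = 0.191). Col4a2 went the same way (1.24, adjusted p = 0.195). Without tumour 1, 3 or 4, the number of basement membrane genes higher was 5, 4 and 3 and that lower 5, 5 and 6. Lama1, Col4a5, Col4a6 and Lama4 kept their call in each of these fits. Lama2, Lama3, Lamb3, Lamc1, Nid1, Nid2, Hspg2, Agrn, Col4a1 and Col4a2 fall outside the naming rule and were chosen after their values were known.

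**Figure D4:**
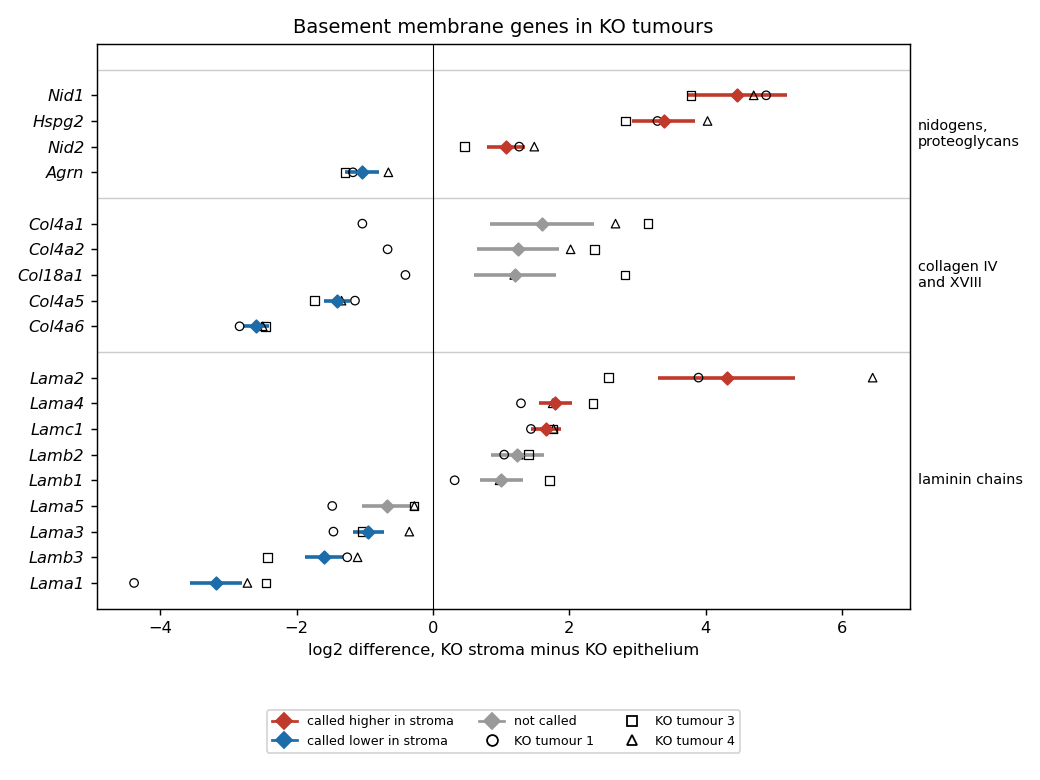
Log2 difference of stroma minus epithelium (horizontal axis) for 18 of the 19 basement membrane genes in KO tumours. Diamonds are the fitted difference with its standard error, coloured by the call, and open symbols are the 3 tumours; Lama1 and Lama2 lie at opposite ends of the laminins, and tumour 1 stands on the other side of 0 for Col4a1 and Col4a2.

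Integrins, the receptors for these proteins, were higher in stroma for 7 of 17 measured and lower for 1, with 5, 2 and 2 higher and 1 lower without tumour 1, 3 or 4. Itga5, which pairs with Itgb1 to bind fibronectin, differed by 1.499 and Itga4 by at least 1.56-fold, and both kept their call without each tumour. Itga11 (4.09), a collagen receptor of fibroblasts, lost its call without each tumour, and the laminin receptor gene Itga7 (3.62) without tumour 3 or 4. Itga8 was lower in stroma, with ratios of 3.01, 3.29 and 2.72 in epithelium and 0.50, 2.15 and 1.56 in stroma (difference -1.60, adjusted p = 0.0132). Its call ended with Agilent's processed signals and in fits without a fixed tumour block. The epithelial integrin genes Itga6 (-0.61) and Itgb4 (-1.01) did not pass the test.

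Endothelial genes were higher in stroma for 12 of 18 measured, of 21 listed, and lower for none, at a median of 2.37. Without tumour 1, 3 or 4 the number was 12, 4 and 5. Sox18, a factor of vessel and lymphatic identity, had ratios of 0.36, 0.31 and 0.28 in epithelium, above background on 1 of 3 arrays, and 2.18, 3.06 and 2.72 in stroma (difference 2.33, SE 0.238, adjusted p = 0.00267). The lymphatic gene Lyve1 had 0.71, 2.12 and -0.25 against 3.34, 4.85 and 1.65 (difference 2.42, adjusted p = 0.00508), and its call ended without the tumour block. The cadherin gene Cdh5 had 0.70, 0.32 and -0.38 against 1.17, 2.24 and 1.71 (difference 1.49, adjusted p = 0.0213). The smallest gap of Cdh5 was in tumour 1, and its call ended without tumour 3 or 4 and in the fit of the 6 KO arrays alone. Plvap, a protein of vessel pores, differed by 3.38, with -0.20 from a dimmer probe. Cd34 (5.05, and 1.502 with a second probe) and Egfl7 (4.39) were higher, the former losing its call without tumour 1 or 4 and the latter without tumour 3 or 4. The receptor gene Kdr had 0.11 (adjusted p = 0.666) and 1.33 with a second probe, and Pecam1 had 0.63 (adjusted p = 0.055).

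Pericyte and smooth muscle genes did not move as 1 group, 5 of 16 measured higher and 1 lower, at a median of 0.56. The higher genes were Kcnj8 (2.41), Abcc9 (1.99), Pdgfrb (3.55), which the fibroblast list also holds, Mcam (1.05) and Cspg4 (1.505). Each of the first 4 lost its call without 1 or more of the KO tumours, and the number of the list's genes higher was 3, 0 and 1 when tumour 1, 3 or 4 was left out. A second Mcam probe gave 0.08. Acta2, the actin of smooth muscle, myofibroblasts and myoepithelium, had ratios of 0.60, 0.35 and -0.19 in epithelium and -0.22, 0.68 and 1.12 in stroma. The values overlap (difference 0.27, adjusted p = 0.689), and the sign turned with median centring (-0.16) and without tumour 4 (-0.24). The tropomyosin gene Tpm1 was lower in stroma (-1.54), with -0.30 to -1.45 from the other probes.

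Macrophage genes were higher in stroma for 15 of 19 measured and lower for 1, at a median of 2.21. Without tumour 1, 3 or 4 there were 11, 13 and 10 higher. Fcer1g, the signalling chain of Fc receptors, had ratios of -0.97, -1.24 and -2.23 in epithelium and 1.99, 2.17 and 1.48 in stroma (difference 3.36, SE 0.28, adjusted p = 0.00184). Tyrobp, an adaptor of myeloid receptors, had 1.28, 0.74 and 0.28 against 3.75, 3.41 and 3.76 (difference 2.87, SE 0.297, adjusted p = 0.00273). The compartments stood clear of each other in both genes. C1qb (1.58), Aif1 (1.89) and Fcgr3 (at least 4.45-fold) kept their call without each tumour. Csf1r, the receptor that macrophages need to survive, had 0.74, 0.65 and -0.35 against 3.84, 3.41 and 4.22 (difference 3.48, adjusted p = 0.0108), with a call that ended without tumour 4 (adjusted p = 0.058) and 1.75 and 0.51 from other probes. Cd14, a co-receptor for bacterial lipid, was lower in stroma (-1.16, adjusted p = 0.0161), and was chosen after its value was seen. The common leukocyte gene Ptprc had 0.02, which turned to -0.20 without tumour 4.

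Other leukocyte genes separated the compartments less. Of 20 lymphocyte genes measured 1 was higher, at a median of 0.59 that turned to -0.06 without tumour 4. The gene was the antibody joining chain gene Jchain, with ratios of -4.42, -6.82 and -6.87 in epithelium and -1.57, -2.10 and -5.93 in stroma. Its compartments overlapped (difference 2.83, adjusted p = 0.0256), and the call ended without tumour 1 or 3 and with 4 other settings. The T cell gene Cd3e had 1.28 (adjusted p = 0.272). Of 9 neutrophil and mast cell genes measured S100a9 was higher (2.99), with 5.23 in the stroma of tumour 3 against 2.15 and 2.98 in the others, a call that ended without tumour 3 or 4. The list's lower gene was Kit, which luminal cells express as well.

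Complement genes were higher in stroma for 13 of 20 measured and lower for 1, at a median of 2.47, with 9 higher without each tumour. C1s1, a protease of the classical pathway, had ratios of -2.28, -2.24 and -4.02 in epithelium and 2.56, 2.30 and 1.09 in stroma (difference 4.83, SE 0.595, adjusted p = 0.00416). Properdin, which stabilises the alternative pathway's enzyme, is encoded by Cfp and had 0.73, 1.14 and -0.55 against 4.32, 4.76 and 3.87 (difference 3.88, adjusted p = 0.00234). Cfb (3.16) and the receptor gene C3ar1 (1.95) were higher as well. Clu, a secreted chaperone that epithelium makes, was lower in stroma (-2.20), and was chosen after its value was seen. Of 16 chemokine genes measured 9 were higher and none lower, at a median of 2.70, with 6, 7 and 5 without tumour 1, 3 or 4. Ccl9 had -0.26, -0.59 and -2.82 against 4.27, 3.96 and 2.21 (difference 4.70, SE 0.477, adjusted p = 0.00263). The monocyte chemoattractants Ccl2 (3.32), Ccl7 (2.99) and Ccl12 (3.43) and the T cell attractant Ccl17 (3.22) kept their call without each tumour. Chemokine, MHC, interferon-induced and globin genes have close copies whose probes may share signal.

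Interferon response genes were higher for 11 of 18 measured and lower for none, at a median of 1.74, with 6, 3 and 6 without tumour 1, 3 or 4. Oas2, an RNA-sensing enzyme, had ratios of -1.76, -1.62 and -2.28 in epithelium and 1.11, 1.30 and 0.51 in stroma (difference 2.86, SE 0.404, adjusted p = 0.00623). Stat2, a factor of the interferon response, had -0.92, -0.92 and -1.10 against 0.65, 0.58 and 0.63 (difference 1.60, adjusted p = 0.00831). Of 16 antigen presentation genes measured 6 were higher and none lower, with 2, 2 and 1 without tumour 1, 3 or 4. Cd86, a T cell costimulator, differed by 2.70 and kept its call without each tumour. B2m (1.59), H2-D1 (2.18), H2-Eb1 (2.29) and H2-DMb1 (1.98) each lost it without 2 or 3 of the tumours.

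Genes of other tissues were looked at beside the stromal ones. Globin and heme genes of red cells were higher in stroma for 6 of 7 measured, at a median of 2.98, with 0, 0 and 1 called without tumour 1, 3 or 4. Hba-a1 had ratios of 5.88, 2.40 and 2.88 in epithelium and 8.67, 8.02 and 7.79 in stroma (difference 4.44, adjusted p = 0.0234). Fat cell genes were called for 3 of 19 measured, Fabp4 (4.20), Lpl (2.81, and 0.77 with a second probe) and Pparg (2.44), all higher. The stroma of tumour 3 stood apart in this list, with a median ratio of 3.67 against 0.55 and 0.04 in the stroma of tumours 1 and 4. The lipid droplet gene Plin1 had 5.86 in the stroma of tumour 3 and 1.59 and 0.67 in the others, and did not pass the test (adjusted p = 0.110). Without tumour 3, 0 fat cell genes were higher and 1 lower. The oxygen-binding gene Mb was lower in stroma, with 4.87, 3.103 and 4.43 in epithelium against 1.07, 0.20 and 1.02 (difference -3.37, adjusted p = 0.00181), while the muscle actin gene Acta1 had 0.19 and did not pass. Of 11 nerve sheath genes 2 were higher and 2 lower, among them the myelin gene Pmp22 (3.28, and 0.85 with a second probe). The part of these tissues in other differences was not tested.

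TGF-beta and BMP genes were called in both directions, 5 of 27 measured higher and 4 lower. Of all genes tested 10.2% were higher and 9.86% lower. Without tumour 1, 3 or 4 the list had 1, 1 and 2 higher and 2, 1 and 2 lower. The TGF-beta receptor gene Tgfbr2 had ratios of -0.18, 0.40 and -1.32 in epithelium and 3.06, 2.81 and 2.47 in stroma (difference 3.15, SE 0.331, adjusted p = 0.00282), with 1.01 from a second probe. Inhbb, an activin subunit, had 3.70, 4.18 and 4.36 against 1.86, 1.79 and 1.72 (difference -2.29, SE 0.22, adjusted p = 0.00244). The ligand genes Tgfb1 (0.89), Tgfb2 (-0.88) and Tgfb3 (-0.48) did not pass the test. The vessel receptor gene Acvrl1 (1.75) and Id3 (0.86) were higher and Id2 (-1.58) lower, and these lost their call without 1 or more KO tumours.

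Ligands and their receptors were set side by side for 69 pairs, of which 49 had both genes measured and 5 had both called. In 3 pairs both genes were higher in stroma. They are the macrophage growth factors Csf1 (1.75) and Il34 (3.37) with their shared receptor Csf1r, and Gas6 (2.57) with its receptor kinase Axl (2.50). In 1 pair the ligand was higher in stroma and the receptor in epithelium, Bmp4 (1.95) with Bmpr1a (-0.76). In the last pair, Wnt1 with Fzd7, both were higher in epithelium. Il34 had ratios of 1.19, 1.13 and -0.11 in epithelium and 4.47, 2.96 and 4.90 in stroma (SE 0.743, adjusted p = 0.0238). Gas6 had 3.09, 3.35 and 3.85 against 6.62, 5.24 and 6.15 (SE 0.52, adjusted p = 0.0184). Each of the 5 pairs has a gene that lost its call without 2 or more of the KO tumours. Bmpr1a also lost its call without each WT tumour, as Fzd7 did.

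Transcription factors of stromal cells were higher for 11 of 21 measured, of 28 listed, and lower for none, at a median of 1.85. The number was 10, 9 and 8 without tumour 1, 3 or 4. Ebf1, a factor of fibroblasts, fat precursors and B cells, had ratios of -1.20, -0.89 and -1.24 in epithelium and 0.91, 1.60 and 1.08 in stroma (difference 2.31, SE 0.214, adjusted p = 0.00225). Prrx2, a homeobox factor of mesenchyme, had -2.56, -2.68 and -2.57 against 0.35, -0.04 and 0.87 (difference 2.997, adjusted p = 0.00628). Fli1, a factor of blood and vessel cells, differed by 2.16. Hox genes, which mark position along the body, were higher for 9 of 20 measured and lower for none, at a median of 0.84, with 7, 5 and 5 without tumour 1, 3 or 4. Of the 20, 6 were above background on no epithelial array, and with the filter on all 12 arrays 5 were measured, at a median of 0.41, and none was called in limma. Hoxa3 had -2.92, -2.25 and -3.11 against -0.14, -0.27 and 0.34 (difference 2.74, adjusted p = 0.00376), and Hoxc4 differed by 2.49. Hoxa2 was at least 1.58-fold higher in stroma. Notch genes were called for 3 of 17 measured, against 20% of all genes tested. They were the target gene Hey1 (-1.39), the glycosyltransferase gene Mfng (2.92) and Nrtn (-2.08). Nrtn encodes the growth factor neurturin and is not a Notch gene. Mfng lost its call without tumour 3 or 4, which left none higher.

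Of 27 ribosomal protein genes Rpl4 (-1.10) and Rps3 (-0.78) were lower in stroma, at a list median of -0.19, and Rps3 lost its call without each tumour. Of 27 respiratory chain genes 5 were lower and none higher, at a median of -0.36, with Uqcrfs1 (-0.94), Uqcrc2 (-0.79), Sdha (-0.71), Ndufb5 (-0.71) and Atp5a1 (-0.62). Without tumour 1, 3 or 4 the number was 0, 1 and 0, and each of the 5 lost its call with median centring. Proliferation genes were called once in 24, for the factor gene E2f1 (1.55), which was higher in stroma and lost its call without tumour 3 or 4. Their median was -0.71, and in tumours 1, 3 and 4 it was -1.63, -0.39 and -0.19. Mki67, a marker of dividing cells, had ratios of -0.56, -0.65 and -0.95 in epithelium and -3.07, -1.25 and -1.12 in stroma, lower in each tumour's stroma without passing the test (difference -1.09, adjusted p = 0.140). Glycolysis and hypoxia genes were called for 3 of 24, Adm (2.31) higher and Aldoc (-2.18) and Slc2a1 (-0.79) lower. Immediate early genes were called for 2 of 18, Klf6 (1.505) and Dusp1 (0.88), both of which lost their call without 2 or more tumours. The shares over all genes tested were 10.2% higher and 9.86% lower. Counts for proliferation, glycolysis and immediate early genes lay near or below these shares.

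Retinoid genes were called for 4 of 19 measured, 2 in each direction, at a median of 0.10. That is near the share of all genes tested, of which 20% were called. Crabp2, which carries retinoic acid to its receptors, had ratios of 4.51, 3.88 and 3.99 in epithelium and 1.89, 1.86 and 1.11 in stroma (difference -2.50, SE 0.267, adjusted p = 0.00289). The related carrier gene Crabp1 (1.48) and the retinol dehydrogenase gene Adh1 (1.96) were higher. Crabp1 lost its call without each KO tumour and Adh1 without tumour 1 or 3. Rarb itself had -1.13, 1.36 and 0.50 in epithelium and 1.83, 2.09 and 0.57 in stroma, overlapping between compartments (difference 1.25, adjusted p = 0.187). The sources used here do not place the probe inside or outside the deletion, so these values check nothing about the genotype.

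Over all pairs of a stromal and an epithelial array within a genotype, of the same tumour or not, correlation was higher on average in WT tumours. It was 0.638 to 0.927 there, with a mean of 0.807, against a mean of 0.568 in KO tumours. At an adjusted p under 0.05, 1 gene differed between WT stroma and WT epithelium, which is 0.00749% of genes tested. The difference between KO and WT tumours was itself tested, and 0 genes passed in limma (0%), with 2418 at an unadjusted p under 0.05. Other settings gave between 0 and 269. The median difference of fibroblast genes in KO tumours 1, 3 and 4 was 4.27, 3.16 and 5.51, and in WT tumours 1, 2 and 3 it was 1.09, -0.84 and 3.07. That of luminal genes was -2.11, -2.04 and -2.40 in KO and -0.17, -0.28 and -0.46 in WT. Macrophage genes had 2.48, 1.86 and 2.44 in KO and 0.21, 0.06 and 0.83 in WT. For luminal and macrophage genes the WT medians lay nearer to 0 than each KO median, and for fibroblast genes WT tumour 3 came close to KO tumour 3. The luminal genes had median ratios of 2.12, 1.87 and 1.12 in the stroma of WT tumours 1, 2 and 3. Of 38 lists, 5 had a median farther from 0 in WT than in KO tumours, among them lymphocyte genes (1.30 in WT, with 3.86 in WT tumour 2), immediate early genes (0.81) and ribosomal protein genes (0.43). The part of epithelial RNA in WT stroma in these differences was not tested.

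**Figure D5:**
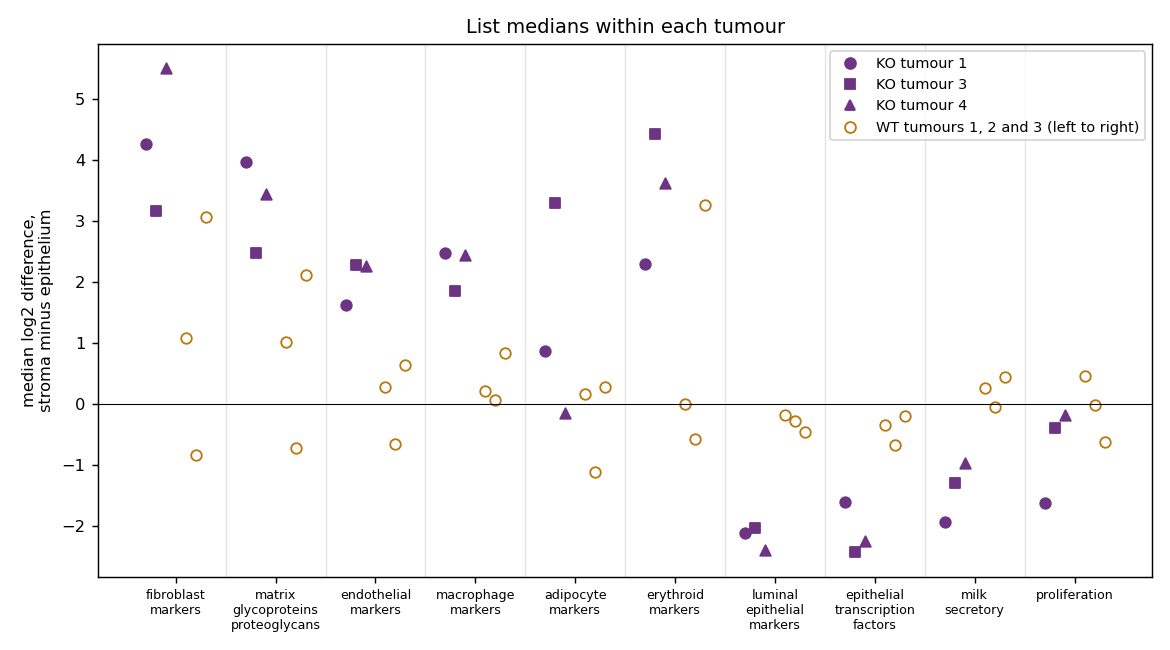
Median log2 difference of stroma minus epithelium (vertical axis) over the measured members of 10 gene lists within each tumour. Filled symbols are the 3 KO tumours and open circles WT tumours 1, 2 and 3 from left to right; luminal genes lie near -2 in KO and near 0 in WT tumours, and KO tumour 3 stands apart for fat cell genes.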

How the data were processed

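Per the labels, RNA of laser-captured compartments was labelled with Cy3 and reference RNA with Cy5 on each array, and dyes were not swapped. The scans, of 2 colours, passed through Feature Extraction 10.7.3.1 per the file headers, and the deposited files give median intensities of spots and local background. The value table holds log2 values as deposited by the authors. Its epithelial columns ran as reference over sample (r with the own array -0.9 to -0.865) and its 6 stromal columns followed no array, so scale and row order stay unknown, and it was not used. Each column's median lay near 0.

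Intensities were corrected with normexp (offset 50) and loess in limma 3.58.1 (R 4.3.3), with control spots at weight 0. Probes were named by accession through the RefSeq table of GRCm38.p6, and the brightest kept probe stands for a gene. A gene was tested if Cy3 was well above background on 3 of 12 arrays. Stroma was compared with epithelium in 1 fit over 12 arrays with tumour as a block (4 residual degrees of freedom), with p-values adjusted over 13351 genes by Benjamini-Hochberg and called under 0.05. The pairing comes from the titles, and deviations from group means correlated between a tumour's compartments at 0.0916, 0.287 and 0.233 for KO tumours 1, 3 and 4, above any other stroma (-0.244 to 0.0217). A fold written "at least" sets the brighter group's mean against the higher of the dim probe's signal and the lowest signal above background on each array. The fit was tested on simulated data.

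Genes named are Wnt1, Rarb, the cell type markers, the 12 largest rises and 12 largest falls among called genes above background, up to 5 called members of each list, and ligand-receptor pairs with both called, with any exception stated. Spint2, Snai2, Zeb2, Cldn4, Jup, Dsg2, Csn1s1, Col6a1, Col8a1, Col11a1, Col16a1, Vcan, Thbs1, Mmp7, Mmp14, Itga6, Itgb1, Itgb4, Cspg4, Tgfb1, Tgfb2, Tgfb3 and Mki67 also fall outside this rule and were chosen after their values were seen. Members and lists were chosen with earlier results of these data known. Lists are described by counts and medians, with no set test. They share genes, such as C1qb in the macrophage and complement lists, so their counts are not independent. Some genes that the lists count are not reported here by name.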

Additional observations from a re-analysis of the deposited data

Results flagged for a closer look

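The median difference of stroma minus epithelium over 27 respiratory chain genes was -0.36 in KO tumours. It was negative in each KO tumour (-0.72, -0.17 and -0.23 in tumours 1, 3 and 4) and positive in each WT tumour (0.11, 0.10 and 0.11 in tumours 1, 2 and 3), which is why it is given here. All 38 lists were looked through for opposite signs in KO and WT tumours, and no other list had them. The difference between the medians was not tested. Gene by gene, 0 of the 27 passed limma's test of the difference between KO and WT tumours at an adjusted p under 0.05. An unadjusted p under 0.05 was found for 10 of the 27, and for 2418 of all 13351 genes tested.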

How the results depend on the processing

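The count of 2674 genes moved by over 1.5 times with median centring in place of loess (1525, with 886 higher and 639 lower). The fit of the 6 KO arrays alone, with the replicate block, moved the lower genes to 819. It called 1955 genes in all, 1136 of them higher, and shared 1801 calls with the main fit. Without KO or WT tumours in turn, the count ranged from 1074 to 2718, with 509 to 1431 higher and 562 to 1287 lower. The difference between KO and WT tumours had 0 genes, but 54 without background correction, 83 with probes above background on all 12 arrays, 22 without the filter, 218 with array weights and 144 without WT replicate 3; the cause was not tested. The replicate block mattered to it: 50 genes passed without the block and 269 with tumour as a random block, against 2429 and 3310 for KO stroma against epithelium. Of 180 named genes called, 137 kept their call in 13 alternatives that keep all tumours and 103 whichever tumour was left out. Without WT tumour 1, 2 or 3, 15, 6 and 3 of the 180 lost their call. Dcn and Mfap5 lost theirs without WT tumour 1. Signs turned for Krt5 (0.222) and Olah (0.141) with processed signals, Ptprc (-0.203) and Acta2 (-0.241) without KO replicate 4, Des (-0.134) without KO replicate 3 and Acta2 (-0.156) with median centring. With each tumour left out in turn, Ptprc ranged from -0.203 to 0.138, Des from -0.134 to 0.723 and Acta2 from -0.241 to 0.818. List medians turned for Wnt ligands and receptors (0.255) with the filter on all 12 arrays, and for Notch genes (-0.0345) with that filter and with the mean of probes. They also turned without KO replicate 4 for lymphocyte genes (-0.0610) and retinoid genes (-0.00155), and for nerve sheath genes with median centring and with that filter. Aquantile leaves ratios unchanged by construction. A slide block was not run, because each compartment has its own slide. Differences of probes dim in 1 compartment are limited by signal over background, and 87 higher and 69 lower genes were above background on no array of their dim compartment.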
